A study of Drosophila melanogaster with 4 samples.

Results

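Close pairs of strong H3K4me3 peaks were described in white prepupae of Drosophila melanogaster, from the peak list that the authors deposited for chromatin immunoprecipitation and sequencing (ChIP-seq). A pair was a stretch of exactly 2 peaks on chromosome arms 2L, 2R, 3L, 3R, 4 or X, made by joining successive peaks with a gap of 500 bp or less, in which both peaks scored 100 or more and were under 5000 bp wide. This rule gave 313 pairs, or 626 of the 7743 peaks of the list. The animals came from the strain Y cn bw sp, whose genotype has y[1] and oc[R3.2], the alleles Gr22b[1], Gr22d[1] and cn[1] together with CG33964[R4.2], then bw[1] and sp[1], and LysC[1] and lab[R4.2] together with MstProx[1], GstD5[1] and Rh6[1]. By the labels, 2 libraries were immunoprecipitated with a polyclonal rabbit antibody to H3K4me3 and 2 are input DNA, all from whole animals of this stage and genotype as far as the labels state. The deposited list is 1 for the series and holds a position and a score for each peak but no value per library. There was therefore no replicate error, the depth is unknown, and no input level stands beside a score.

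Trimethylation of lysine 4 of histone H3 (H3K4me3) is laid down at the promoters of transcribed genes by the Set1 and Trithorax families of methyltransferases. The mark sits on nucleosomes just downstream of the transcription start, while the start itself is often depleted of nucleosomes, so signal at an active promoter can dip at the start. The fly genome is compact, and many of its genes lie head to head with their starts close together. White prepupae mark the onset of metamorphosis, when a pulse of the steroid hormone ecdysone drives the death of larval tissues and the growth of adult ones. A whole animal mixes many tissues, and whether both peaks of a pair were marked in the same cells cannot be read from such a list. Gene names and sequences are not given, because the peaks lie on FlyBase release 5, no genome of that release was used here, and the available gene table is on release 6.

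The pairs were chosen by the measured gap, score and width of the peaks, so these values are described without a test. On the arms 7245 peaks formed 4726 stretches, of which 1047 held exactly 2 peaks. Both peaks scored under 100 in 269 of these 2-peak stretches, 1 of 2 reached 100 in 419, and both reached 100 in 359. A peak of 5000 bp or more removed 46 of the 359 and left the 313 pairs, 6.62% of all stretches. Their peaks made up 18.1% of the 3459 peaks on the arms that scored 100 or more and were under 5000 bp wide. Such peaks are called strong below, and the remaining ones stood alone or in other stretches. Of 753 cases in which 2 neighbouring strong peaks lay 500 bp or less apart, 313 (41.6%) were these pairs and 440 belonged to stretches of 3 or more peaks.

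The rule holds the break within a pair to 500 bp or less and each peak to under 5000 bp. Within these limits the pairs spanned about 4.5 kb at the median. The gap between the 2 peaks had a median of 236 bp (quartiles 156 and 332 bp, range 45 to 497 bp). It was 200 to 299 bp long in 97 pairs, 100 to 199 bp in 78 and under 100 bp in 39. A further 51 pairs had gaps of 300 to 399 bp and 48 had longer ones. The gap took up a median of 5.27% of the span from the start of the first peak to the end of the second (quartiles 3.21% and 7.75%). That span had a median of 4465 bp (quartiles 3663 and 5286 bp). In 2-peak stretches with one peak at a score of 100 or more and the other under 100, of any width, the median gap was 220 bp (quartiles 107 and 340.5 bp, n = 419), and where both were under 100 it was 192 bp (quartiles 96 and 304 bp, n = 269). The 3 distributions overlapped over nearly their whole range, and no test was made between them.

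**Figure D1:**
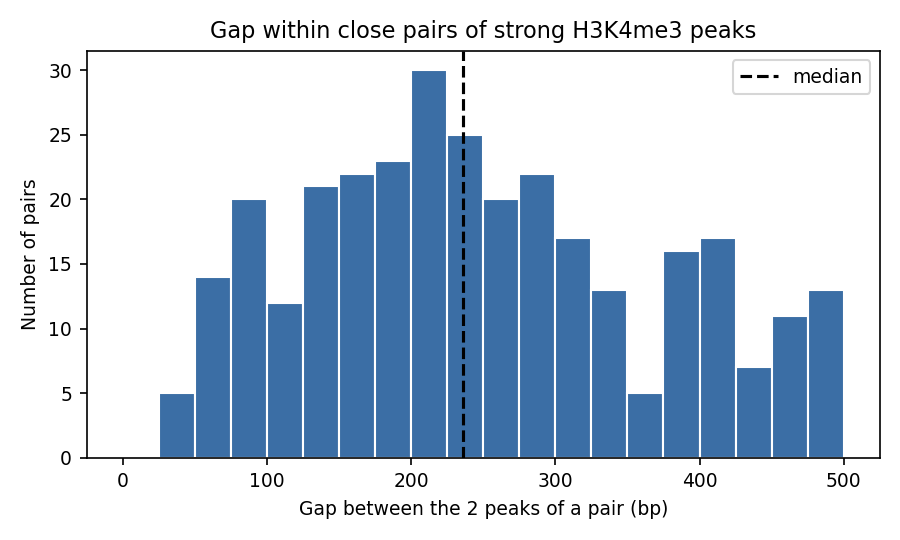
Number of pairs (vertical axis) by the gap between their 2 peaks in bp (horizontal axis, bars of equal width), over all 313 pairs. The dashed line is the median of 236 bp, and most pairs have gaps between 100 and 300 bp.

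The shortest gap, 45 bp, lay on 2L between peaks at 10766038 to 10768104 and 10768150 to 10770007. These peaks were 2067 and 1858 bp wide and scored 369 and 309. The longest gap, 497 bp, lay on 2R between peaks at 5856506 to 5858156 (1651 bp, score 337) and 5858654 to 5860152 (1499 bp, score 191). Just outside the gap limit stood a pair of single strong peaks on 3L, 502 bp apart, at 17424256 to 17426408 (score 366) and 17426911 to 17428592 (score 102). The break within a pair was as a rule far shorter than either peak, since the narrowest peak of any pair was 730 bp wide.

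Pairs with the shortest gaps had somewhat higher lower scores and wider narrower peaks at the median than pairs with the longest. Under 100 bp the median lower score was 216 and the median narrower width 1803 bp (39 pairs). At 400 bp or more these medians were 178 and 1536 bp (48 pairs). Over all 313 pairs the gap had a Spearman's rho of -0.13 with the lower score and of -0.14 with the narrower width. With the score ratio and the width ratio rho was 0.08 and 0.02. All these values come from 1 peak call, and a weak rho of this kind is given as a description only.

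The 2 scores of a pair were mostly unequal by a moderate amount. The score is in the unit of the authors' peak caller, whose scale the file does not name. The lower score had a median of 192 (quartiles 147 and 252) and the higher score one of 313 (quartiles 256 and 370). Their ratio had a median of 1.52 (quartiles 1.22 and 1.98). It stayed under 1.2 in 73 pairs and reached 2 or more in 78 pairs, among them 12 with a ratio of 3 or more. Both peaks scored 200 or more in 146 pairs and 300 or more in 34. The minimum of 100 for both peaks limits how unequal the scores of a pair can be.

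Within a pair, a high score of one peak went with no particular score of the other. Spearman's rho between the score of the first peak and that of the second, in the order of the reference coordinates, was -0.0043 over 313 pairs. Within single arms rho ran from -0.08 on 3L to 0.16 on X. With a lowest score of 50 it was 0.08, and with one of 200 it was -0.05. The minimum leaves out 2-peak stretches with a peak under 100. These values therefore do not tell how the scores relate over all 2-peak stretches. The first peak scored higher in 174 of 313 pairs, 55.6% (95% exact Clopper-Pearson interval 49.9% to 61.2%, counting error only), and was the wider one in 167. The strand of transcription is not in the list, so first and second say nothing of upstream and downstream of a gene.

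**Figure D2:**
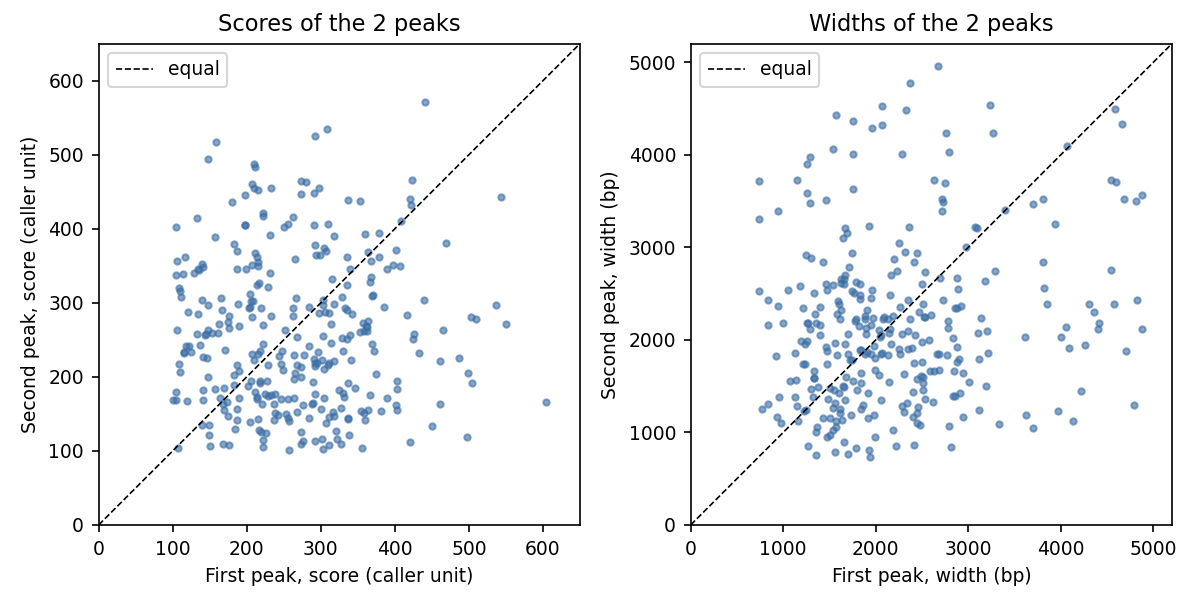
Each point is 1 of the 313 pairs, with its first peak on the horizontal and its second on the vertical axis, in score (left, caller unit) and in width (right, bp). The dashed line marks equal values, and the points spread on both sides of it, with rho of -0.0043 for scores and 0.15 for widths.

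The 2 widths of a pair were also mostly unequal by a moderate amount. The wider peak had a median of 2482 bp and the narrower one of 1660 bp, and their ratio a median of 1.44 (quartiles 1.18 and 1.85). In 83 pairs the ratio was under 1.2, and in 60 it was 2 or more. Spearman's rho between the 2 widths was 0.15 over all pairs. On 2L rho was 0.39 (61 pairs), whereas it lay between -0.04 on 2R and 0.15 on 3L on the other arms that held pairs. Leaving out the 2L pairs in which both peaks were 4000 bp or wider left 59 pairs and a rho of 0.33.

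The wider peak of a pair was usually, but not always, the one with the higher score. This was so in 204 of 313 pairs, 65.2% (95% exact Clopper-Pearson interval 59.6% to 70.4%, counting error only). Where the wider peak was at least 1.5 times as wide, it scored higher in 110 of 139 pairs, 79.1% (71.4% to 85.6%). Among pairs closer in width it did so in 94 of 174, 54.0% (46.3% to 61.6%). Score and width come from the same call, and over the 626 peaks of the pairs they had a rho of 0.46, against 0.49 over 1402 strong peaks that stood alone in their stretch.

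Strong neighbours in each distance class had median ratios close to those of the 2 peaks of a pair. All classes share the same lowest score and width limit, which bound these ratios. In the pairs the median score ratio was 1.67 with a lowest score of 50 and 1.31 with one of 200. The likeness of the median ratios alone therefore cannot show whether inequality depends on distance. The 440 other strong neighbours 500 bp or less apart had a median score ratio of 1.45 and a median width ratio of 1.46. At gaps of 501 to 2000 bp (308 neighbours) these ratios were 1.46 and 1.44, and at 2001 to 10000 bp (304 neighbours) 1.57 and 1.43. Strong neighbours over 10000 bp apart (438 cases) had ratios of 1.54 and 1.47. In each class the quartiles overlapped those of the pairs almost wholly. For scores rho lay between -0.07 and 0.09 in these 4 classes, and for widths between 0.04 and 0.20. The shared limits on score and width also restrict rho, so it does not tell how neighbouring peaks of any score relate. The wider peak scored higher in 60.5% to 67.1% of cases in these classes, with 65.2% in the pairs. A peak can be the second of one case and the first of the next, so the cases outside the pairs are not independent, and no test was made.

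**Figure D3:**
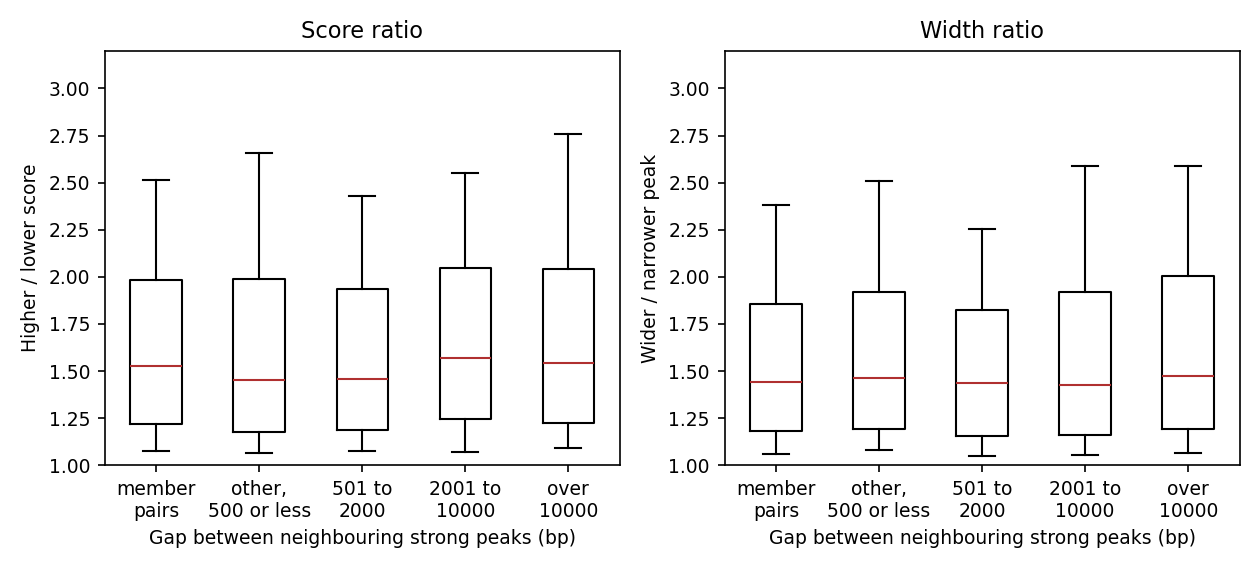
Ratio of the higher to the lower score (left) and of the wider to the narrower peak (right) for neighbouring strong peaks, by the gap between them in bp. Boxes show quartiles, red lines medians and whiskers the 10th and 90th percentiles, and the median score ratio of the 313 pairs, 1.52, lies among those of the other classes, 1.45 to 1.57.

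A few pairs illustrate the extremes of strength. The pair with the highest lower score on 2L, and on any arm, lay at 541300 to 542777 (1478 bp, score 544) and 542875 to 544750 (1876 bp, score 443), with a gap of 97 bp. On X the leading pair by the same measure combined peaks at 19594117 to 19595874 (1758 bp, score 423) and 19596077 to 19600088 (4012 bp, score 466). The leading pair of 2R lay at 12082039 to 12086854 (4816 bp, score 420) and 12086946 to 12090445 (3500 bp, score 440), only 91 bp apart. In 3 of these 5 leading pairs, those of 2L, 2R and 3L, the narrower peak scored higher.

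The leading pair of 3R had nearly equal scores, 408 at 14076507 to 14078575 and 411 at 14078723 to 14083251, although its second peak, at 4529 bp, was 2.19 times as wide as its first. On 3L the leading pair scored 378 and 361, at 17006504 to 17009250 and 17009414 to 17013109. The highest score of any peak in a pair, 604, was singled out after its value was seen. It lay on 3R at 16150997 to 16153837, and its partner at 16154134 to 16155793 scored 167. The highest-scoring peak thus stood in a pair with a score ratio of 3.62.

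The most equal scores, 302 and 304, belonged to peaks on 2L at 18698674 to 18703246 and 18703394 to 18705780, whose widths of 4573 and 2387 bp differed by a ratio of 1.92. The most equal widths, 1246 and 1247 bp, belonged to peaks on 3L at 12746690 to 12747935 and 12748073 to 12749319, which scored 149 and 121. The width ratio of the 2L pair was thus above the upper quartile of all pairs, 1.85. The score ratio of the 3L pair, 1.23, was under the median of 1.52. Both ratios were under 1.1 in 6 pairs, or 1.92%, and both were under 1.2 in 21 pairs. Of the 6 pairs, 3 lay on 2L, beside 61 of all 313 pairs, and these counts were not tested against each other. Among the 3 was the pair with the longest span, whose sequence was not examined.

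The most unequal scores, 498 and 119, lay on 2L at 15764120 to 15768424 and 15768790 to 15771179, a ratio of 4.19. The most unequal widths lay on 2R, where a peak of 737 bp at 13343941 to 13344677 scored 183 and its neighbour of 3721 bp at 13345084 to 13348804 scored 130. Here the narrow peak had the higher score.

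The pair with the longest span, 9581 bp, lay near the base of 2L at 21496494 to 21501082 and 21501577 to 21506074. Its peaks were 4589 and 4498 bp wide, scored 247 and 235, and were 494 bp apart. The next stretches stood 537 and 608 bp away and were single peaks of like width and score, 4505 bp at 21491452 to 21495956 (score 230) and 4437 bp at 21506683 to 21511119 (score 209). No genome sequence was used here, so whether these peaks lie on repeated sequence that shares reads was not tested. In only 3 of 313 pairs were both peaks 4000 bp or wider, on 2L in 2 cases and on 2R in 1, and their gaps, 450 to 494 bp, were all near the limit for joining. The shortest span, 2178 bp, was on 2L at 2856084 to 2857020 (score 306) and 2857096 to 2858261 (score 137).

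At the edges of the rule, the lowest score in a pair was 100.8, of a peak on 3R at 10336178 to 10337305 whose partner at 10337456 to 10339309 scored 168. The 2-peak stretch just outside was on 3L, at 20778420 to 20779331 (score 98.95) and 20779474 to 20781302 (score 301). The widest peak of a pair, 4961 bp on 2L at 8308373 to 8313333, scored 255 beside a peak of 2675 bp that scored 302. Just outside stood a stretch on X with a peak of 5009 bp at 16692450 to 16697458 (score 379) and one of 1857 bp at 16697560 to 16699416 (score 252). At the width limit the narrower peak scored higher inside and the wider peak outside.

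The distance from a pair to the next stretch depended on the limit used for joining. The nearest other stretch lay at a median of 2264 bp (quartiles 946 and 6864 bp, range 503 to 73785 bp), and the one on the farther side at a median of 20881 bp (quartiles 6898 and 48155 bp). With joining at 250 bp the median of the nearest distance was 946 bp, and with joining at 1000 bp it was 4381.5 bp. At the limit of 500 bp another stretch stood within 1000 bp of 89 pairs, 28.4% (95% exact Clopper-Pearson interval 23.5% to 33.8%, counting error only). Only 26 pairs had other stretches within 2000 bp on both sides, and 46 pairs, 14.7% (11.0% to 19.1%), had none within 10000 bp on either side. Distances to the left and to the right had a rho of -0.02 over 313 pairs. The rule sets a lower bound of more than 500 bp for both distances.

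Distances from pairs and from single strong peaks to the next stretch had similar medians, with longer values among single peaks in the upper part of the range. The median distance to the nearest stretch was 2414 bp for the 1402 single strong peaks (quartiles 838 and 8012 bp, with a median of 18209 bp on the farther side), and 2187 bp over all 4726 stretches. It was 1816 bp for the 419 stretches with one peak at 100 or more and the other under 100, which have no width limit and are not matched to the pairs in that respect. Single strong peaks had no stretch within 10000 bp on either side in 19.8% of cases (17.8% to 22.0%). This share was 14.7% for the pairs. The 90th percentile of the nearest distance was 20171 bp for single strong peaks and 16423 bp for pairs, and these differences were not tested.

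**Figure D4:**
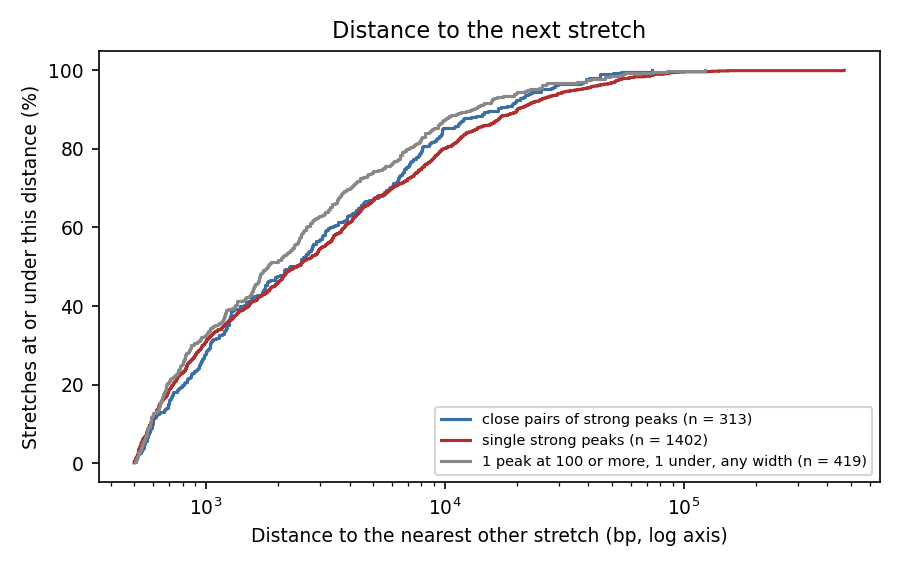
Cumulative percentage of stretches (vertical axis) by the distance to the nearest other stretch in bp (horizontal log axis), for the 313 pairs, 1402 single strong peaks and 419 stretches with one peak at 100 or more and the other under 100, of any width. The curves run close together, with medians of 2264, 2414 and 1816 bp.

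The nearest stretch to a pair was most often a single peak. It was a single peak under 100 in 115 pairs (36.7%) and a single peak of 100 or more in 91 (29.1%), where peaks of any width were counted. Among single strong peaks the order was the other way round, with 30.0% beside a single weak and 37.4% beside a single strong peak. Over all stretches these kinds made up 34.0% and 31.9%. Another pair was the nearest stretch for 21 of the 313 pairs, 6.71%, beside 6.62% of pairs among all stretches. These shares were not tested against each other.

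The closest next stretch was 503 bp from a pair on 3L at 9418503 to 9419804 (score 105) and 9419984 to 9422868 (score 356). The pair farthest from any other stretch lay on 2L at 5799277 to 5800217 (941 bp, score 159) and 5800563 to 5803957 (3395 bp, score 517), with 73785 bp free on one side and 103146 bp on the other. Both of these pairs, from opposite ends of the range, were strongly unequal, with score ratios of 3.38 and 3.25. Over all pairs, rho between the nearest distance and the score ratio was 0.0013.

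No more than 2 pairs followed each other without another stretch between them. This happened 25 times and involved 50 pairs, 16.0%, and in 13 of the 25 cases the pairs were 10 kb or less apart. Pairs made up 6.62% of all stretches, and the number of such cases to be expected from that share was not computed. The closest such neighbours were on 2L between 18698674 and 18710583, 919 bp apart, and include the pair with the most equal scores. On 3L, the pairs between 3896779 and 3909623 were 1040 bp apart. At the other extreme, the peak-free stretch of 485698 bp on 2L had a pair at each end. It separated the pair with the most unequal scores from one at 16256878 to 16257648 (score 151) and 16257937 to 16259191 (score 107).

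Pairs occurred on 5 of the 6 arms. They made up 7.51% of the stretches on 2L (61 of 812), 7.52% on 2R (72 of 957), 7.62% on 3L (69 of 906), 6.28% on 3R (69 of 1098) and 4.72% on X (42 of 889). The exact Clopper-Pearson interval for X, 3.43% to 6.33%, overlapped those of 2L, 2R, 3L and 3R, whose lower ends lay between 4.92% on 3R and 5.97% on 3L. Per Mb between the first and the last peak, 2R held 3.41 pairs and X 1.87. Strong peaks made up 43.9% of all peaks on X and 47.2% to 50.1% on the large autosome arms. Of the strong peaks of X 14.0% were in pairs, beside 16.9% on 3R and 21.0% on 2R, and these shares were not tested against each other.

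Chromosome 4 held 0 pairs among its 64 stretches, which allows a share of up to 4.69% (3 counts). It had 8 stretches of 2 peaks and 28 strong peaks. The 2-peak stretch nearest to the rule had scores of 92.9 at 682573 to 683883 and 192 at 684226 to 685926. The 95% exact interval of the same share reached 5.60%, so the share on X, 4.72%, lies between the bounds that these methods give.

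**Figure D5:**
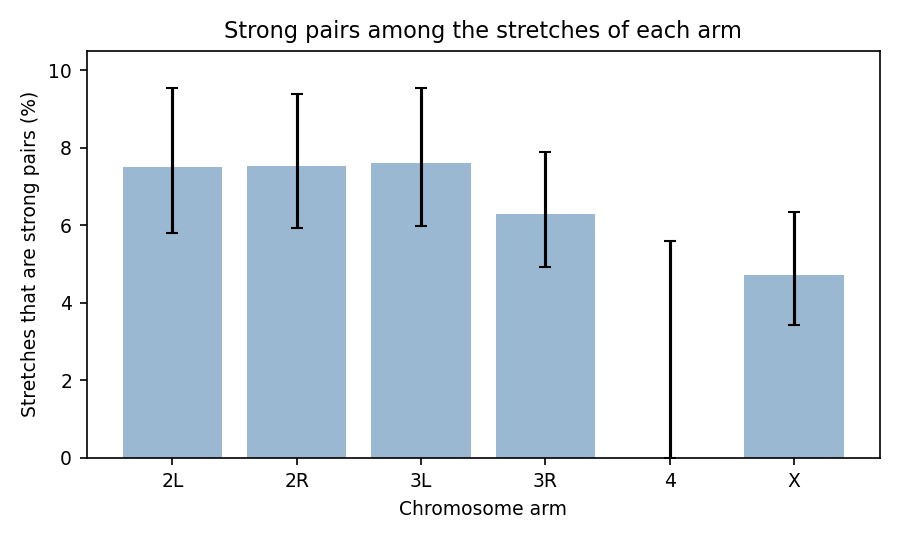
Percentage of joined stretches that were close pairs of strong peaks (vertical axis) on each chromosome arm (horizontal axis). Bars give the share and lines its 95% exact binomial interval for counting error, with X at 4.72%, chromosome 4 at 0 and the other arms at 6.28% to 7.62%.

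The form of the pairs was similar across the 5 arms that held them. Median gaps ran from 195 bp on 3R to 267 bp on 2R, and median score ratios from 1.47 on 2L to 1.66 on 3L. Median width ratios lay between 1.39 on 2L and 1.52 on 2R, and median spans between 4184 bp on 3L and 4539 bp on X. The nearest other stretch was at a median of 1554 bp on X and 3127 bp on 2R. The wider peak scored higher in 57.1% of pairs on X and in 63.9% to 68.1% on the other arms. The Mb with the most pairs was on 2L, from 8000001 to 9000000, with 10, followed by 15000001 to 16000000 on 3L with 7. Stretches and strong peaks were not counted per Mb, so these counts are not shares.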

How the data were processed

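The labels list 2 H3K4me3 and 2 input libraries. The submitters' processing notes name BWA and MACS2, the BDGP5 build and CASAVA (1.7.0.2, also 1.7.0.3), without settings. The authors deposited 1 peak list on FlyBase release 5, per the file headers, with start, end and a score whose scale is not named. Pooling of replicates and the use of input in calling peaks are not given in the sources used here. Scores served to filter, rank and describe peaks of this list alone.

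Width was end minus start plus 1, and the gap was next start minus end minus 1. Distances to other stretches were counted in the same way. The joining of peaks was tested on simulated data with known stretches, all of which it recovered. Shares have 95% exact Clopper-Pearson intervals (scipy), which treat stretches as independent and cover counting error only. A count of 0 was given the limit of 3 counts. No test was made, since the list has no replicates and the members were chosen on its values. Named pairs are the one with the highest lower score on each arm, the extremes of gap, score ratio, width ratio, span and nearest distance, the cases at each limit, and successive pairs. The members and named pairs were chosen with earlier results of these data known. Tools were scipy 1.17.1, pandas 2.3.3 and numpy 2.4.6 under Python 3.11.15, with figures from matplotlib 3.10.9.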

Additional observations from a re-analysis of the deposited data

How the results depend on the processing

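The 8 descriptive results were recomputed under 9 settings, and 62 of 72 values stayed close to those reported (counts within 1.5 times, medians within 10%, rho within 0.1, the share within its interval). Joining at 250 bp gave a median gap of 159 bp and a median nearest distance of 946 bp, and joining at 1000 bp gave 276.5 and 4381.5 bp, as the limit itself bounds both. With a lowest score of 150 the median score ratio was 1.36, and with 200 it was 1.31 over 146 pairs, since a higher minimum allows less inequality. The nearest distance was 2751.5 bp with a width limit of 3000 bp, 3238 bp when only peaks scoring 20 or more were joined, which leaves fewer stretches, and 2543 bp without X and chromosome 4. The number of pairs ran from 146 to 417. No paired analysis was possible because values of single libraries are not in the list used here, so leaving out a replicate was not run either. Depth is unknown, so what it limits was not measured.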

Other observations

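Outside the 6 arms, on the unplaced and heterochromatin sequences, 498 peaks formed 488 stretches, of which 10 held 2 peaks. None of the 488 met the rule for a close pair of strong peaks, which allows a share of up to 0.615% (3 counts, counting error only). The ends of the joined fragments can limit the neighbours of a peak on such sequences, so this share is not comparable with those of the arms.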
